A study of Prunus persica with 84 samples.

Results

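Floral buds of the peach genotype KV021779 (LP) after 28 d at 22 °C were set against floral buds of the genotype John Boy (JB) after 16 d at 22 °C. JB 16 d was selected on measured values, the distances between whole expression profiles: of the 6 JB warm days it lay nearest to LP 28 d, so the comparison pairs 2 genotypes at a similar state of the profile and not at the same day. It uses 6 of the 84 libraries of the series, 3 per group. LP 28 d had 10673023, 9790709 and 9325035 counts, and JB 16 d had 12406341, 10480180 and 11762954. Shoots of both genotypes had been cut and stood in water, had first spent 1000 h at 4 °C, and were then moved to 22 °C. Neither genotype carries a transgene in the labels, each is a single accession, and LP began to bloom at 28 d and JB at 20 d. The match therefore sets LP buds at the start of bloom against JB buds sampled one step before it. Genotype and the number of warm days differ together in it and cannot be told apart. No label says that the 3 libraries of a group came from separate trees, so p-values measure the spread between these libraries, which may be technical.

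A peach flower bud forms in summer, becomes dormant, and can only resume growth after a long exposure to cold, the chilling requirement. After chilling, warmth drives the bud through swelling and flower opening, and genotypes differ in how much warmth they need. Dormancy-associated MADS-box (DAM) genes are transcription factor genes linked to dormancy in peach, where the evergreen mutant, which lacks several of them, does not stop growing. AP2-type factors of the euAP2 group, named in the title of the series, are regulators of flowering and floral organ identity in Arabidopsis. The count table pairs its other identifiers with no names or functions. None of them matched the RefSeq gene table, so the label floral bud could not be checked against marker genes, and most genes below are described by identifier and pattern alone. In bulk buds, fewer cells of a type and less RNA per cell cannot be told apart.

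The distances that chose the day are given as a description. The root mean square difference in log2 CPM (counts scaled to library size) over 21168 genes was 1.01, 1.02 and 1.06 between the 3 LP 28 d libraries and the JB 16 d mean. The next nearest day was JB 20 d, at 1.36, 1.35 and 1.33. The earlier JB days lay at 1.42 to 1.70. The 3 LP libraries thus all lay nearest to JB 16 d, and did so without LP replicate 3. The match was a near one only in relative terms. An LP 28 d library lay 0.364, 0.372 or 0.549 from the mean of the other 2 of its group, and a JB 16 d library 0.264, 0.272 or 0.265.

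**Figure D1:**
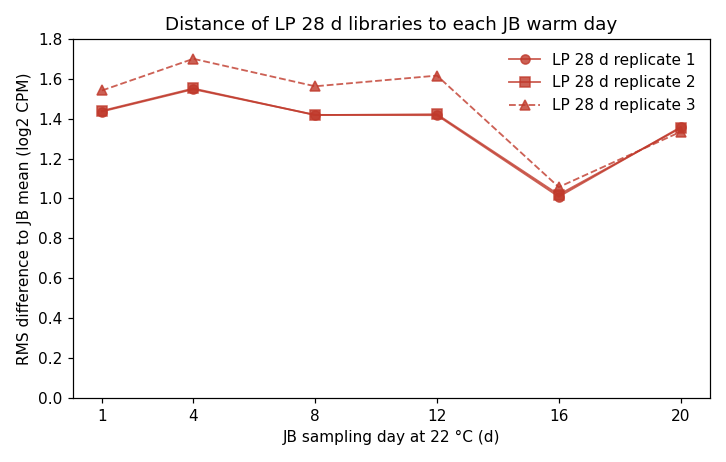
Root mean square difference in log2 CPM (y axis) between each LP 28 d library (1 line per replicate, replicate 3 dashed) and the mean of each JB warm day (x axis, days at 22 °C). All 3 lines have their lowest point at 16 d, between 1.01 and 1.06, and replicate 3 lies above the other two at days 1 to 16.

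LP 28 d replicate 3 stood apart. Over genes, log2 CPM of LP replicates 1 and 2 correlated at r = 0.992, while replicate 3 correlated with them at 0.976 and 0.975. The 3 JB 16 d libraries correlated at 0.992 with each other. Set against the mean of LP replicates 1 and 2, LP replicate 3 was higher by 2-fold or more in 459 genes and lower by as much in 831. Its own position in bud development differed as well, as given below, so results are also given without it. JB 12 d replicate 3 stood apart too, and counts of calls that rest on JB 12 d are also given without it.

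LP 28 d buds and JB 16 d buds differed more often by a lower level in LP than by a higher one. By edgeR's quasi-likelihood test, 948 genes (4.48% of the genes tested) were at least 2-fold higher in LP 28 d and 2372 (11.2%) at least 2-fold lower, at an adjusted p under 0.05. Without LP replicate 3 the counts were 1014 and 2186, of which 859 and 2065 were among the calls above. Because JB 16 d was picked as the nearest day, these totals describe the match and test nothing. For the same LP libraries, JB 20 d gave 2387 genes higher (11.3%) and 2437 lower (11.5%), and 2533 and 2396 without LP replicate 3. JB 12 d gave 4037 higher (19.1%) and 3162 lower (14.9%), and 4173 and 3007 without both libraries that stood apart. Fewer genes were called against JB 16 d than against either neighbouring day, which its choice already makes likely.

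The genes that differed were a small part of the reads. The 948 higher genes took 4.93% to 5.63% of all counts in the LP 28 d libraries and 1.45% to 1.49% in the JB 16 d libraries. The 2372 lower genes took 2.18% to 2.36% in LP 28 d and 7.83% to 7.92% in JB 16 d. These shares follow from the calls and are given as a description. Between 22478 and 22698 genes had a count in the LP 28 d libraries, against 23150 to 23262 in the JB 16 d libraries, whose total counts were mostly higher. The median gene differed by -0.05 on the log2 scale, so scaling left the bulk of the genes near level.

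Samples outside the match were used to divide the genes that differed. A gene was called standing if LP was also called at least 2-fold the same way over the 7 chilling times, which use none of the 6 matched libraries. It was called reverse if chilling gave a 2-fold call the other way. Of the rest, a stage gene was at least 2-fold apart between JB 20 d and JB 8 d, and a remaining gene was none of these. Over chilling, LP was at least 2-fold higher than JB in 703 genes (3.32% of those tested) and lower in 1518 (7.17%).

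Standing genes made up 305 (32.2%) of the higher and 625 (26.3%) of the lower genes of the match. Reverse genes made up 86 (9.07%) of the higher, where 7.17% of all genes were lower over chilling, and 82 (3.46%) of the lower, where 3.32% were higher. Among stage genes the directions were uneven, with 310 (32.7%) of the higher genes and 1345 (56.7%) of the lower. The remaining class held 247 (26.1%) of the higher and 320 (13.5%) of the lower genes. Over all genes tested, 18.2% rose and 17.5% fell at least 2-fold between JB 8 d and JB 20 d. Of the 310 higher stage genes 260 rose over that span and 50 fell, whereas the 1345 lower stage genes were 649 that rose and 696 that fell. Without LP replicate 3, standing genes were 318 and 582, reverse genes 88 and 70, stage genes 329 and 1250, and remaining genes 279 and 284. The median log2 difference was largest in the standing class, at 2.54 among its higher and -2.17 among its lower genes. Lower stage genes followed at -1.97.

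**Figure D2:**
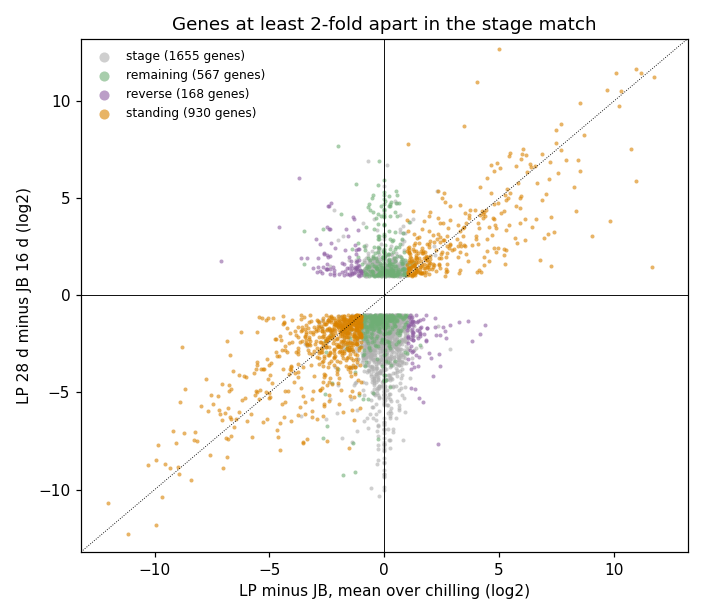
Each point is a gene at least 2-fold apart in the match, with its log2 difference between LP and JB averaged over chilling (x axis) and its log2 difference between LP 28 d and JB 16 d (y axis), coloured by class. The 930 standing genes lie on either side of the dotted line of equal differences, in the quadrants of equal sign, the 1655 stage genes fill the column near 0 mostly below the x axis, and the 168 reverse genes lie in the opposite quadrants.

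The genotype difference of these genes was also found at single times. At 0 h, before any chilling, 307 (32.4%) of the 948 higher genes were already called higher in LP, against 4.54% of all genes tested, and 534 (22.5%) of the 2372 lower genes were already called lower, against 5.7%. At 0 h, 55 (5.80%) of the higher and 139 (5.86%) of the lower genes of the match were called the other way. In an earlier pair of warm days, LP 20 d against JB 8 d, 424 (44.7%) of the higher genes were called higher, against 6.96% of all genes, and 816 (34.4%) of the lower genes were called lower, against 7.42%. There 43 (4.54%) of the higher and 229 (9.65%) of the lower genes were called the other way, where all genes gave 7.42% lower and 6.96% higher. In LP 24 d against JB 12 d the same-way counts were 535 (56.4%) higher and 892 (37.6%) lower, where all genes gave 10.5% and 8.36%, and the other-way counts were 50 (5.27%) and 92 (3.88%). Without both libraries that stood apart the same-way counts were 528 (52.9%) and 827 (36.9%). Each of these same-way shares lies above that of all genes tested.

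The strongest standing genes were present in one genotype and at or near 0 in the other at all times. PRUPE_4G092800 had 62.5, 66.9 and 76.6 CPM in LP 28 d and no count in JB 16 d. It was at least 856-fold higher in LP 28 d, taking a count of 0 as at most 3 counts over the 3 libraries. All JB libraries together held 1 count of it, while LP had 33.9 ± 6.1 CPM at 24 d (SD, n = 3) and 0.481 ± 0.45 CPM over its 21 chilling libraries. This gene was low in LP over chilling and nearly absent from JB throughout.

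PRUPE_3G012900 had 35.7, 34.3 and 30.5 CPM in LP 28 d, none in JB 16 d, and was at least 421-fold higher in LP. It was already at 22.1 ± 9.4 CPM over the LP chilling libraries, with no count in JB chilling. PRUPE_8G008700 was the opposite case, with no count in LP 28 d and 53.6, 46.0 and 51.4 CPM in JB 16 d, at least 568-fold lower in LP. LP chilling libraries held 1 count of it in all and JB chilling libraries 32.3 ± 19 CPM. PRUPE_4G235700 also had no count in LP 28 d and 39.4, 37.1 and 35.0 CPM in JB 16 d, at least 418-fold lower.

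Such presence and absence was uncommon. Of the higher genes, 9 with at least 5 CPM in LP 28 d had no count in JB 16 d, all 9 standing, and 7 of them had at most 3 counts in the other 36 JB libraries. Of the lower genes, 15 with at least 5 CPM in JB 16 d had no count in LP 28 d, and 10 of these had at most 3 counts in the other 42 LP libraries. Among these 15, 8 were stage genes, 5 standing and 2 remaining. A count of 0 in such a gene says that no read was assigned to this model, and sequence differences between the genotype and the annotation were not tested.

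Standing genes were unevenly spread over the chromosomes given in the identifiers. On chromosome 2, 200 of the 2558 tested genes (7.82%) were standing, against 4.39% over all tested genes. Of these 200, 80 were higher and 120 lower in LP 28 d. Chromosome 5 had the lowest share, 38 of 1999 genes (1.90%). On chromosome 2 the genes were also bunched: along the order of identifiers, the densest window of 100 tested genes held 43 standing genes, where the median window held 4. Stage genes showed no such spread, with 7.54% to 8.92% of the tested genes on every chromosome and 7.82% overall. No test was run on these shares.

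**Figure D3:**
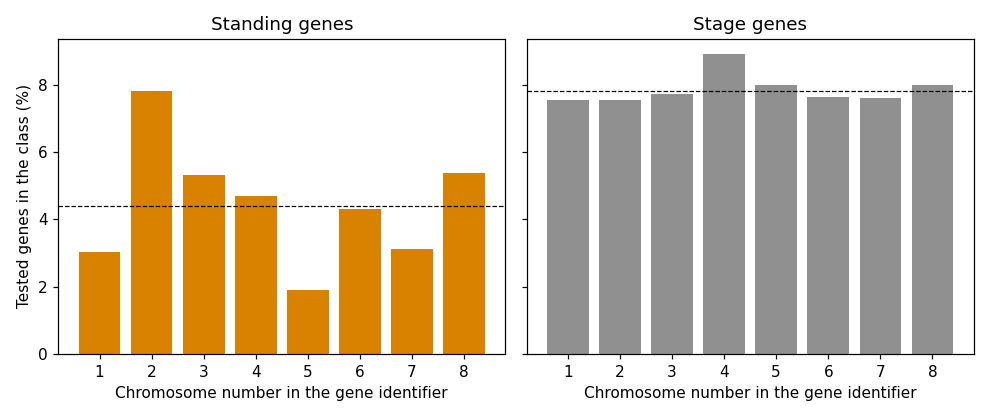
Percent of tested genes (y axis) that were standing (left) or stage genes (right) on each chromosome number carried by the identifier (x axis), with the share over all tested genes as a dashed line. Standing genes lie at 7.82% on chromosome 2 and 1.90% on chromosome 5, whereas stage genes lie between 7.54% and 8.92% throughout.

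To place both groups on one course of bud development, genes that changed at least 4-fold between JB 8 d and JB 20 d were used. By edgeR, 2128 genes (10.1%) rose and 1694 (8%) fell over that span. For each gene, 0% was set at its JB 8 d level and 100% at its JB 20 d level, and the median over genes was taken in each library. The matched libraries had no part in the list or the scale. The list comes from JB alone, so genes that move late in LP only are not on it.

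On this scale built from JB, genes that fall towards bloom were much further along in LP 28 d. For falling genes the position was 61.6%, 62.9% and 70.0% in LP 28 d, against 32.3%, 33.1% and 33.1% in JB 16 d. The means were 64.8 ± 4.6% and 32.8 ± 0.46% (SD, n = 3), a difference of 32.0 percentage points. For rising genes it was 57.4%, 57.6% and 64.0% in LP 28 d, against 68.5%, 67.2% and 67.9% in JB 16 d. The means were 59.7 ± 3.8% and 67.9 ± 0.65% (SD, n = 3), a difference of -8.19 percentage points. The groups overlapped in neither list. LP 28 d was thus ahead of JB 16 d on the falling genes and behind it on the rising genes. The lag in rising genes depended on the size of the change asked for, since genes at least 2-fold apart placed LP at 58.0% and JB at 57.8%. In JB 16 d itself, rising genes had covered more of their span than falling genes.

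LP replicate 3 was the furthest along of the LP libraries in both lists. Of the 2128 rising genes, 235 were at least 2-fold higher in it than in the mean of the other two and 92 at least 2-fold lower. Of the 1694 falling genes, 76 were higher in it by 2-fold or more and 226 lower. Without it the differences between LP and JB were 29.4 percentage points for falling and -10.4 for rising genes.

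**Figure D4:**
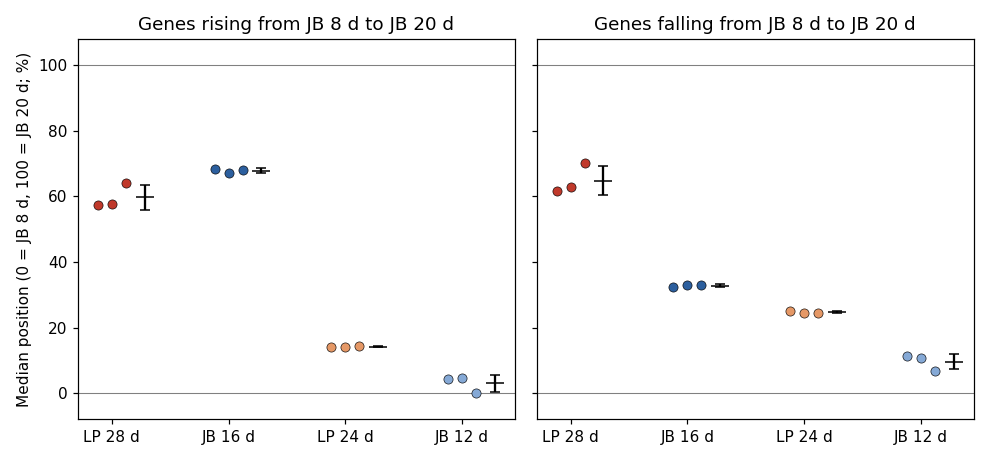
Median position of each library (points) on the span between JB 8 d (0%) and JB 20 d (100%) for genes that rose (left) or fell (right) between those days, with the mean and SD of each group as bars. In falling genes the LP 28 d libraries lie at 61.6% to 70.0% and the JB 16 d libraries at 32.3% to 33.1%, while in rising genes LP 28 d lies at 57.4% to 64.0%, below JB 16 d at 67.2% to 68.5%.

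Single genes showed the same split. LP 28 d was further along than JB 16 d in 1414 of the 1694 falling genes (83.5%), and in 925 of the 2128 rising genes (43.5%). The interquartile range of the falling genes was 39.9% to 89.3% in LP 28 d and 17.0% to 48.8% in JB 16 d. In LP 28 d 273 falling genes (16.1%) were already past their JB 20 d level, against 15 (0.885%) in JB 16 d. Among rising genes it was 30.5% to 82.2% in LP 28 d and 42.8% to 93.3% in JB 16 d.

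By the gene-wise test, 789 (46.6%) of the falling genes were at least 2-fold lower in LP 28 d than in JB 16 d and 76 (4.49%) higher. Without LP replicate 3 these were 684 (40.7%) and 79 (4.70%). The median falling gene was at -1.06 on the log2 scale, where the median of all genes was -0.05. Of the rising genes, 699 (32.8%) were lower and 289 (13.6%) higher, with a median of -0.21. Among all genes tested, 11.2% were lower and 4.48% higher. Lower levels in LP were also found before warming. Over chilling, 373 (22.0%) of the falling and 264 (12.4%) of the rising genes were at least 2-fold lower in LP, against 7.17% of all genes. In the other direction, 109 (6.43%) of the falling and 178 (8.36%) of the rising genes were at least 2-fold higher, against 3.32% of all genes. The medians over chilling were -0.27 for falling and -0.10 for rising genes. When each genotype was measured from its own level at 1000 h, over genes 4-fold apart between JB 20 d and JB 1000 h, falling genes lay at 59.6% in LP 28 d and 40.8% in JB 16 d, a gap of 18.8 points.

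In the pair of days before, LP was ahead on both lists. LP 24 d lay at 24.6 ± 0.32% on the falling and 14.1 ± 0.20% on the rising genes (SD, n = 3). LP 20 d already lay at 21.3 ± 0.66% on the falling and 9.10 ± 0.51% on the rising genes. The JB 12 d libraries lay at 6.88% to 11.2% and 0% to 4.62%, and replicate 3 was the lowest in both. LP 28 d had therefore moved further on both lists than LP 24 d, as JB 16 d had further than JB 12 d. LP was thus already above 0% on this JB scale at 20 d. How much of the LP 28 d positions goes back to that offset was not tested.

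The strongest stage genes were found at the match in one genotype only, or at a far higher level in one. PRUPE_4G070600 had 368, 357 and 486 CPM in LP 28 d, against 19.6, 20.4 and 19.9 CPM in JB 16 d, a log2 difference of 4.33 ± 0.16 (SE; edgeR adjusted p = 2.15e-19). DESeq2 gave it an adjusted p of 0.657 at a log2 difference of 4.38. It had no count in any chilling library and 0.311 ± 0.19 CPM in JB 20 d, so in JB its level at 16 d was the highest of the 8 d to 20 d samples. Its place among the stage genes rests on 1 count in JB 8 d and 10 in JB 20 d. PRUPE_2G205600 had 16.3, 17.3 and 9.55 CPM in LP 28 d, against 1.36, 0.955 and 0.467 CPM in JB 16 d (log2 difference 3.94 ± 0.34, adjusted p = 2.19e-12). In JB this gene fell, from 1.93 ± 0.36 CPM at 8 d to no count at 20 d.

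PRUPE_1G560200 had no count in LP 28 d and 13.0, 12.6 and 14.0 CPM in JB 16 d, at least 149-fold lower in LP. It had 24.2 ± 2.5 CPM in JB 20 d and no count in any LP library. PRUPE_1G212200 behaved alike, with no count in LP 28 d, 11.8, 9.20 and 11.3 CPM in JB 16 d (at least 122-fold lower in LP) and 23.3 ± 2.1 CPM in JB 20 d. Both had no count at JB 8 d. These genes came up late in JB buds and were not detected in LP buds up to the start of bloom.

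Reverse genes were called on opposite sides on the chilling mean and at the match. PRUPE_5G062500 had 81.5, 73.1 and 95.4 CPM in LP 28 d, against 3.40, 2.34 and 3.43 CPM in JB 16 d, a log2 difference of 4.75 ± 0.21 (adjusted p = 5.31e-30). Over chilling it was at 0.154 ± 0.14 CPM in LP and 0.801 ± 0.42 CPM in JB, a log2 difference of -2.33. It had 4.72 ± 1.3 CPM in LP 24 d and 0.132 ± 0.12 CPM in JB 20 d. PRUPE_1G471500 had 128, 126 and 175 CPM in LP 28 d, against 9.75, 11.5 and 7.24 CPM in JB 16 d (3.92 ± 0.18, adjusted p = 2.5e-29), but its chilling difference rests on 9 counts in LP and 27 in JB.

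Of the reverse genes lower in LP, PRUPE_4G008400 had 0.0833, 0.441 and 2.12 CPM in LP 28 d, against 23.5, 23.8 and 24.1 CPM in JB 16 d (-4.81 ± 0.33, adjusted p = 2.9e-20). The highest of its LP values was in replicate 3, and JB 20 d had 44.3 ± 3.9 CPM. Its chilling call rests on few counts, 64 in LP and 33 in JB over 21 libraries each (0.260 ± 0.20 CPM in LP and 0.126 ± 0.10 CPM in JB). PRUPE_7G228300 had 0.333, 0.881 and 0.289 CPM in LP 28 d, against 13.1, 14.8 and 13.8 CPM in JB 16 d (-4.76 ± 0.37, adjusted p = 4.3e-18). Over chilling its log2 difference was 1.17, a mean taken over the 7 times on the log scale. In CPM it had 6.14 ± 2.4 in LP and 5.08 ± 7.6 in JB, where the spread exceeded the mean. It reached 57.3 ± 4.3 CPM in JB 20 d.

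The remaining genes differed at the match without a 2-fold call on the chilling mean or between JB 8 d and JB 20 d. Smaller differences were not excluded. PRUPE_6G242400, described below, is in this class and was 0.67 ± 0.04 higher in LP on the chilling mean. PRUPE_5G051300 had 5.75, 6.35 and 6.75 CPM in LP 28 d, against 0, 0.260 and 0.0779 CPM in JB 16 d (5.75 ± 0.52, adjusted p = 4.3e-12). PRUPE_1G505000 had 12.0, 11.8 and 18.4 CPM in LP 28 d, against 0.151, 0.434 and 0.234 CPM in JB 16 d (5.67 ± 0.38, adjusted p = 2.17e-13). Both were under 1 CPM in LP 24 d, at 0.0492 ± 0.044 and 0.540 ± 0.13 CPM.

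In the other direction, PRUPE_8G130900 had no count in LP 28 d and 7.03, 6.77 and 5.14 CPM in JB 16 d, at least 70.9-fold lower in LP. At 0 h it had 16 counts in JB and none in LP (edgeR log2 difference -5.86, adjusted p = 0.000197). PRUPE_1G006800 had no count in LP 28 d and 4.76, 7.38 and 4.75 CPM in JB 16 d, at least 62.5-fold lower. In JB 20 d they were at 0.104 ± 0.18 and 0.0298 ± 0.052 CPM. The counts of these genes were concentrated in the matched group of the higher genotype. LP 28 d held 211 of the 215 LP counts of PRUPE_5G051300 and 469 of the 491 of PRUPE_1G505000, and JB 16 d held 237 of the 275 JB counts of PRUPE_8G130900 and 209 of the 245 of PRUPE_1G006800.

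**Figure D5:**
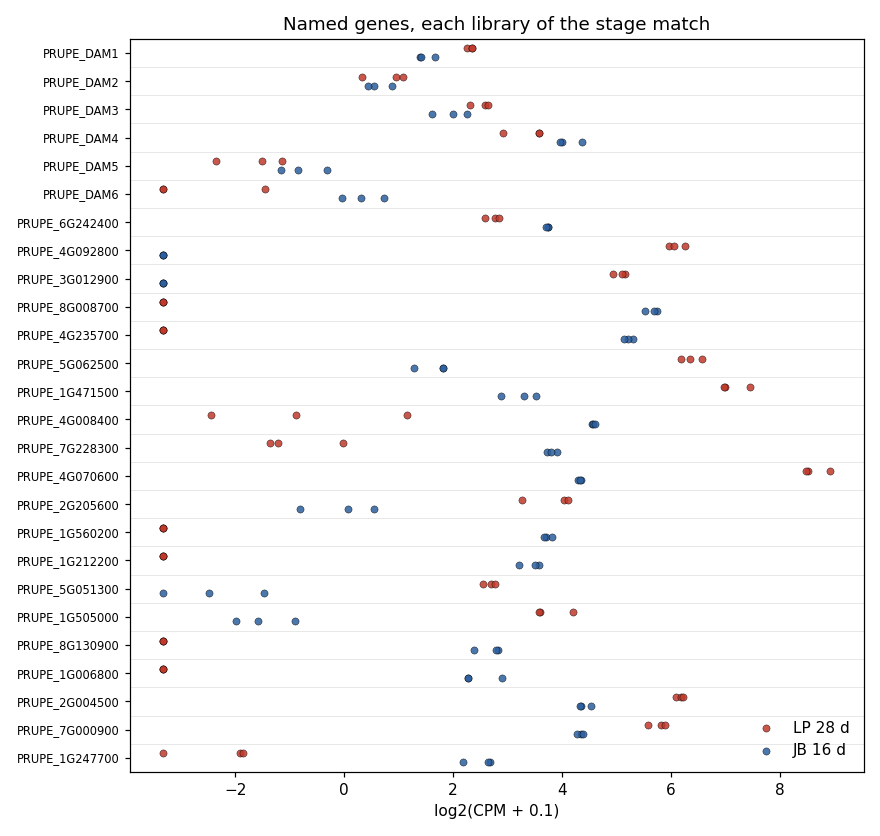
Level of each named gene as log2(CPM + 0.1) (x axis) in the 3 LP 28 d libraries (red) and the 3 JB 16 d libraries (blue), with genes down the page. Points at the left edge are libraries with no count. Apart from DAM2 and DAM5, the points of the 2 groups do not overlap in the genes shown. All but the DAM genes and PRUPE_6G242400 were chosen by a rule that requires this. Of all genes tested, 51.7% do not overlap.

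In many of the genes called, the LP 28 d mean lay outside the range of the JB warm daily means. Of the 948 higher genes, 406 (42.8%) were at least 2-fold above the highest of the 6 JB warm daily means, of which 204 were standing, 134 remaining, 55 stage and 13 reverse genes. Of the 2372 lower genes, 443 (18.7%) were at least 2-fold below the lowest, of which 261 were standing, 88 remaining, 86 stage and 8 reverse genes. Without both libraries that stood apart the counts were 405 and 403. At these genes the LP 28 d mean lay at least 2-fold away from the mean of every JB warm day sampled. Single JB libraries were not compared.

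DAM genes were called in both directions, at shares near those of all genes tested. With 6 genes, nothing particular to the family can be read from these counts. Of the 6 DAM genes, 1 was higher in LP 28 d and 2 were lower at an adjusted p under 0.05 without a fold minimum, where 17.2% of all genes were higher and 27.3% lower, and 3 did not pass. The groups did not overlap in 4 of the 6, against 51.7% of all genes tested. The median log2 difference of the 6 was -0.25, against -0.05 over all genes. Since DAM genes are related copies in tandem, reads may have been split between them, and the single values are uncertain. Their sequences were not examined.

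PRUPE_DAM4 had 11.9, 11.8 and 7.42 CPM in LP 28 d, against 15.9, 15.5 and 20.6 CPM in JB 16 d, a log2 difference of -0.73 ± 0.13 (adjusted p = 2.6e-06). Over chilling it had been 0.42 ± 0.03 higher in LP (adjusted p = 6.1e-18), so the sign was the opposite one. Its chilling level was 566 ± 250 CPM in LP and 435 ± 205 CPM in JB (SD over 21 libraries each). Its fall from the end of chilling was steeper to LP 28 d than to JB 16 d, by -1.35 ± 0.16 (adjusted p = 6.93e-11).

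PRUPE_DAM6 was nearly gone from LP 28 d, with 0, 0.264 and 0 CPM from 3 counts, against 1.13, 0.868 and 1.56 CPM from 45 counts in JB 16 d. The ratio of LP to JB was 0.0743, with an exact 95% interval of 0.0148 to 0.232 that covers counting error only (adjusted p = 0.0201). The call was lost without LP replicate 1, LP replicate 3 or JB replicate 3, at adjusted p of 0.0771, 0.0763 and 0.0671. Its fall from the end of chilling was also steeper in LP, by -4.53 ± 1.28 (adjusted p = 0.00263). PRUPE_DAM5 had 0.250, 0.353 and 0.0964 CPM in LP 28 d, against 0.453, 0.347 and 0.701 CPM in JB 16 d, and did not pass (-1.06 ± 1.21, adjusted p = 0.512).

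PRUPE_DAM1 was the one DAM gene higher in LP 28 d, with 4.67, 5.02 and 5.01 CPM, against 3.10, 2.52 and 2.57 CPM in JB 16 d (0.84 ± 0.28, adjusted p = 0.0097). JB 16 d was low among its neighbours, since JB 12 d had 4.72 ± 0.43 CPM and JB 20 d 4.63 ± 0.38 CPM. PRUPE_DAM2 had 1.83, 2.03 and 1.16 CPM in LP 28 d, against 1.36, 1.74 and 1.25 CPM in JB 16 d (0.22 ± 0.40, adjusted p = 0.691). PRUPE_DAM3 had 4.83, 5.90 and 6.17 CPM in LP 28 d, against 2.95, 4.69 and 3.89 CPM in JB 16 d (0.56 ± 0.32, adjusted p = 0.155). DAM3 passed when only the groups compared were fitted (0.61, adjusted p = 0.0405), and the adjusted p over its alternatives ran up to 0.323. DAM1 and DAM2 lay above their chilling means in both groups, DAM3 somewhat below, and DAM4, DAM5 and DAM6 far below theirs.

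The gene taken as the euAP2 gene of the title, PRUPE_6G242400, was lower in LP 28 d, in spite of its higher mean level in LP over chilling. The link of this identifier to that gene comes from knowledge of the study. It had 6.75, 7.05 and 5.88 CPM in LP 28 d, against 13.2, 13.4 and 12.9 CPM in JB 16 d. The groups did not overlap. On the log2 scale the level fell by 1.00 ± 0.14 in LP 28 d relative to JB 16 d (adjusted p = 5.22e-09). The 2-fold call lies at the threshold, and 9 of the 11 alternative fits gave -0.87 to -0.99, with an adjusted p of at most 0.000219.

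Over chilling PRUPE_6G242400 was 0.67 ± 0.04 higher in LP, as a mean over the 7 times. At 0 h it was level, with 35.0 ± 1.6 CPM in LP and 34.7 ± 0.83 CPM in JB (edgeR log2 difference 0.01, adjusted p = 0.969). At 1000 h it had 57.0 ± 2.7 CPM in LP and 36.5 ± 3.8 CPM in JB (SD, n = 3). Its change from 1000 h was more negative to LP 28 d than to JB 16 d by -1.64 ± 0.17 (adjusted p = 6.4e-13). LP 24 d still had 22.2 ± 1.8 CPM. In JB the level was 37.4, 31.5 and 20.6 CPM at 12 d, the lowest in replicate 3, 13.2 ± 0.22 CPM at 16 d and 18.9 ± 0.37 CPM at 20 d. Thus every LP 28 d library lay below every library of these 3 JB days, with a log2 difference of -1.52 to JB 20 d.

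Across all genes, the change from 1000 h of chilling to the matched day differed between the genotypes in both directions. It was at least 2-fold more positive to LP 28 d in 1529 genes (7.22%) and more negative in 1893 (8.94%). Without LP replicate 3 these were 1614 and 1607. This comparison uses the same LP 28 d and JB 16 d libraries as the match. Named genes with no count in either genotype at 1000 h were not called in it, whatever their levels at the match. For PRUPE_4G070600, one of these, the fitted difference was 4.33 with an SE of 13698. The counts therefore miss differences in such genes.

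Of the 4 genes named for the largest such differences among genes called, 2 each way, 3 had no count in one genotype at 1000 h. The other, PRUPE_5G062500, described above, had 5 counts in LP and 43 in JB. PRUPE_2G004500 had 68.2, 72.9 and 74.7 CPM in LP 28 d, against 20.2, 20.1 and 23.1 CPM in JB 16 d (1.77 ± 0.14, adjusted p = 7.75e-16). At 1000 h it had no count in LP and 1.67 ± 0.11 CPM in JB. PRUPE_7G000900 had 56.2, 47.9 and 59.4 CPM in LP 28 d, against 20.2, 19.4 and 20.8 CPM in JB 16 d (1.44 ± 0.10, adjusted p = 1.86e-17). At 1000 h it had 34.5 ± 3.5 CPM in LP and no count in JB, so it was a standing gene of LP that JB gained only late in warming. PRUPE_1G247700 had 0.167, 0.176 and 0 CPM in LP 28 d, against 6.27, 4.43 and 6.15 CPM in JB 16 d (-5.45 ± 0.49, adjusted p = 5.71e-13). All LP libraries together held 15 counts of it.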

How the data were processed

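Gene counts of 84 libraries (28 groups of 3) were deposited by the authors as raw whole-number counts, 8021919 to 26346177 per library. The labels' protocols name a Norgen RNA isolation kit and the TruSeq Stranded mRNA library kit. Per the submitters' processing notes, FastQC 0.11.9, Trimmomatic, STAR 2.6.0 and edgeR were used. Not given in the sources used here were the counting tool, strand setting, genome build and annotation, so antisense and near-identical genes may share reads.

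From these counts, edgeR 4.0.16 (R 4.3.3) was run on all 84 libraries with filterByExpr (21168 of 26879 genes kept; those removed held 0.028% of reads), TMM scaling, a mean for each group, and 56 degrees of freedom left. The common dispersion corresponds to a biological coefficient of variation of 7.66%. Adjusted p-values are Benjamini-Hochberg over all tested genes. A call needs an adjusted p under 0.05 and a 2-fold difference. SE is the size of the log2 difference divided by the root of F. CPM values use the TMM library sizes, and log2 CPM a prior count of 2. Levels are not compared between genes, since gene lengths were not used. Alternatives were DESeq2 1.42.0, its size factors, no filter, smaller sets of libraries, a replicate block and leaving out libraries. Scripts were tested on simulated data, at an adjusted p under 0.05 without a fold minimum. Planted changes of 1.5-fold, 2-fold and 4-fold were recovered in 73.1%, 94.0% and 100% of cases. Of 201 calls 23 were false, a larger share than the 0.05 aimed at. How many of the false calls reached 2-fold was not recorded.

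Members, day and lists were chosen with earlier results of these data known. Named genes are PRUPE_6G242400, the DAM genes, and in each class the 2 largest rises and 2 largest falls with at least 5 CPM in the higher group and no overlap, and likewise for the warm response. Planned lists by gene function were not filled, since 0 identifiers matched the RefSeq table. Separate rising and falling positions, the own-baseline and scaling alternatives for positions, and fits without JB 12 d replicate 3 were added after seeing the data.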

Additional observations from a re-analysis of the deposited data

Results flagged for a closer look

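The change from 1000 h of chilling to the matched warm day differed between the genotypes by the interaction term in edgeR. It was at least 2-fold more positive in LP in 1529 genes and more negative in 1893. These counts leave out named genes with no count in either genotype at 1000 h, such as PRUPE_4G070600. Of the named genes, PRUPE_DAM4 (-1.35 on the log2 scale), PRUPE_DAM6 (-4.53) and PRUPE_6G242400 (-1.64) fell further to LP 28 d than to JB 16 d, and for these 3 genes LP was higher at 1000 h and lower at the match.

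PRUPE_5G062500 gave 7.92, with 0.162 ± 0.22 CPM in LP and 1.45 ± 0.24 CPM in JB at 1000 h (SD, n = 3). PRUPE_2G004500 gave 9.13, PRUPE_7G000900 -10.28 and PRUPE_1G247700 -8.24. These last 3 have no count in one genotype at 1000 h, so their fitted sizes depend on the prior count and are no bounds.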

How the results depend on the processing

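JB 16 d stayed the nearest day in all 4 alternatives. The match gave 847 to 1153 higher and 1925 to 2419 lower genes under other scaling, filter, tool or set of libraries, 957 to 1079 and 2186 to 2428 when 1 library was left out, and 998 and 2239 without both libraries that stood apart. With 1 replicate number left out, chilling gave 676 to 708 and 1456 to 1541, and the warm response 1359 to 1581 and 1519 to 1768. With no fold minimum the higher and lower counts were 3645 and 5775 (match), 7829 and 6847 (chilling), and 3578 and 5430 (warm response).

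The position over all stage genes was 13.2 points higher in LP 28 d, and reversed to -0.74 (65.7% in LP, 66.5% in JB) when 2 choices changed together: each genotype was set against its own 1000 h level, and the genes were the 2783 rising and 1269 falling 4-fold between JB 20 d and JB 1000 h. For rising genes it reversed to 0.22 in the 2-fold list and was -6.19 to -10.4 otherwise. For falling genes it moved to 27.0 in the 2-fold list and 18.8 with the own 1000 h level and that gene list. The cause was not tested.

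Of 285 values for the 26 named genes, 271 kept their side of the threshold, 13 lost the call, 1 gained it (PRUPE_DAM1, 1.00 without JB replicate 1) and 0 reversed. Those lost were PRUPE_6G242400 in 9 fits, PRUPE_DAM6 in 3 and PRUPE_4G070600 in 1.

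Replicate numbers did not pair the samples (r of same-numbered deviations 0.030, 0.044 and 0.014). The replicate block gave 945 and 2359 genes for the match, 703 and 1517 for chilling, and 1530 and 1886 for the warm response.

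Depth limits genes with few counts, such as PRUPE_DAM6 with 3 counts in LP 28 d and PRUPE_DAM5 with 8, whose differences have wide errors.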

Other observations

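JB 16 d also had genes that were high on that day alone among its neighbours. With at least 5 CPM in JB 16 d and at least 4-fold more than in both JB 12 d and JB 20 d, 163 genes met the rule. Their median level was 12.6 CPM in LP 28 d and 21.9 CPM in JB 16 d, against 4.24 CPM in LP 24 d, 1.79 CPM in JB 12 d and 0.311 CPM in JB 20 d. Of the 163, 92 were called at least 2-fold lower in LP 28 d, 27 higher, and 44 were not called. Among all genes tested, 11.2% were lower and 4.48% higher. In 69 of the 163, LP 28 d was at least 4-fold above LP 24 d. Without both libraries that stood apart, 197 genes met the rule, of which 118 were lower and 28 higher in LP 28 d. The rule selects on high JB 16 d values, which by itself favours lower calls in LP 28 d, so these counts are a description.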
